A study of Homo sapiens with 9 samples.

Results

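The proteasome genes of HepG2 cells, a line from a human liver tumour, are described here in cells that carried a guide against KEAP1 and in cells that carried a control guide. No measured value entered the rule for choosing genes, though earlier results of these data were known when it was set. Genes were chosen by symbol alone: PSMA, PSMB, PSMC, PSMD, PSME, PSMF and PSMG followed by their number, and POMP. This matched 51 of the 11746 features of the count table that have a gene number, and all 51 passed the filter on low counts that left 11064 features for testing. Of the 51, 43 encode subunits, regulators or assembly factors of the proteasome: PSMA1 to PSMA7, PSMB1, PSMB2, PSMB4, PSMB5, PSMB6, PSMB7, PSMC1 to PSMC6, PSMD1 to PSMD14, PSME1 to PSME4, PSMF1, PSMG1 to PSMG4 and POMP. The other 8 share the symbols without being subunits: the antisense transcript PSMA3-AS1, the pseudogenes PSMC1P1, PSMC3P1, PSMD2P1, PSME2P1 and PSME2P2, and PSMC3IP and PSME3IP1, which encode interacting proteins. PSMB3, PSMB8, PSMB9, PSMB10, PSMB11 and PSMA8 were not analysed here.

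Gene expression was measured by QuantSeq, which sequences one stretch near the 3′ end of each polyadenylated transcript, in 9 libraries of 3 groups with 3 libraries each. All groups were HepG2 cells transduced with a lentiCRISPRv2 vector, which encodes Cas9 and one guide, and selected with puromycin, so that the controls carried Cas9, a guide and the selection too. The sgCtrl cells carried sgAAVS168, a guide against the AAVS1 locus that is used as a neutral cutting site, and the sgKeap1-1 and sgKeap1-2 cells each carried a different guide against KEAP1. RNA was taken 48 h after seeding. Whether each group was one clone or a mixed population is not given in the sources used here, nor is it stated that the replicates were separate cultures, so p-values measure the spread between these libraries, which may be technical. In such bulk samples, fewer cells of a type and less RNA per cell cannot be told apart.

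The proteasome degrades proteins that have been tagged with ubiquitin. Its core particle is a stack of rings of alpha subunits (PSMA genes), which gate the entrance, and beta subunits (PSMB genes), among which PSMB5, PSMB6 and PSMB7 cut peptide bonds, and the regulatory particle on its ends consists of a base with the ATPases (PSMC genes) that unfold substrates and a lid that removes ubiquitin. Of the PSMD genes, PSMD1, PSMD2 and PSMD4 belong to the base, PSMD5, PSMD9 and PSMD10 are assembly chaperones of the base, and the rest form the lid. KEAP1 is the substrate adaptor of a CUL3 ubiquitin ligase that hands the transcription factor NRF2 (gene NFE2L2) to the proteasome, and the related factor NRF1 (gene NFE2L1) is known to raise proteasome genes when proteasome activity falls.

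Libraries held 3051755 to 4793757 counts (median 3809616), and the 43 proteasome genes took 0.865 to 1.04% of the counts on numbered genes. All 10 hepatocyte markers checked were in the table, and their summed level, in CPM (counts scaled to the size of the library and normalized by TMM), was 36009.5 to 45072 in sgCtrl, 24211 to 31242 in sgKeap1-1 and 21426 to 24159 in sgKeap1-2, so that it was lower in all 6 KEAP1 guide libraries. The markers did not move as one: in sgKeap1-2, 6 of the 10 fell by edgeR's test at an adjusted p of 0.05, among them ALB (by 1.66 on the log2 scale) and AFP (by 2.38), while TTR rose by 0.65. Of 8 markers of other cells, CD68 and COL1A1 were in the table, at 2.91 to 10.5 summed CPM. The part of this difference in the results on proteasome genes was not tested. The library sgKeap1-2 replicate 3 stood apart: it was the lowest or the highest of the 9 libraries for 62.8% of the 43 proteasome genes (9 lowest, 18 highest), against 39.2% of all features tested. PSMA5, an alpha subunit, was at 26.2 CPM there and at 54.4 to 82.8 CPM in the other 8 libraries. Without this library the log2 fold change in sgKeap1-2 changed sign or moved by over 1.5 times in 27 of the 43 genes (7 changed sign), and over both guides in 20 (5 changed sign). For the log2 fold changes of single genes given below, the value without it is added where it moved that far or the call changed.

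The targeted gene was checked first. KEAP1 (gene number 9817) was at 63.3, 89.2 and 85.3 CPM in sgCtrl, at 64.1, 62.5 and 53.4 CPM in sgKeap1-1 and at 81.9, 85.6 and 73.9 CPM in sgKeap1-2. Each guide overlapped sgCtrl, and neither changed its mRNA past the threshold (log2 fold change -0.40, adjusted p = 0.211, and 0.02, adjusted p = 0.952, by edgeR's quasi-likelihood test), the latter being 0.0833 without sgKeap1-2 replicate 3. The 2 guides did not overlap each other, with a difference of 0.42 (unadjusted p = 0.0148, adjusted p = 0.9 by edgeR). A 3′ tag outside the edited part of a gene does not check a knockout, and where the guides cut was not analysed here. NQO1, a detoxifying enzyme that NRF2 is known to induce, was at 536, 521 and 505 CPM in sgCtrl, at 1442, 1360 and 1265 CPM in sgKeap1-1 and at 1900, 1769 and 1545 CPM in sgKeap1-2. All 6 KEAP1 guide libraries lay above all sgCtrl libraries, with log2 fold changes of 1.38 (adjusted p = 8.25e-06) and 1.74 (adjusted p = 8.47e-07).

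Proteasome genes mostly stayed close to their sgCtrl level, with small differences that pointed upward in most genes. POMP, the chaperone that guides the assembly of the core particle, rose, and PSME1, a subunit of the activator ring that caps the core without ATP, fell; both passed the threshold in sgKeap1-2 and over both guides. In this fit, which has no replicate block, no other of the 51 genes passed in any of the 4 contrasts. In sgKeap1-1 against sgCtrl 0 of 51 genes passed an adjusted p of 0.05 by edgeR's quasi-likelihood test, where 4.2% of all features did. By that test 5 of 51 had an unadjusted p under 0.05, beside 1660 of the 11064 features. DESeq2 called 1, PSME1, and limma-voom 0. In sgKeap1-2 against sgCtrl 2 of 51 passed, where 10.8% of all features did. Over both guides 2 of 51 passed, where 9.64% of all features did. Between the guides 0 of 51 passed, as against 0.0181% of all features, and 0 by DESeq2 or limma-voom. There 4 of 51 had an unadjusted p under 0.05 by edgeR, beside 562 of the 11064 features. The contrasts against sgCtrl share the same 3 control libraries and are not independent of one another.

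Direction was more one-sided than the calls. Of the 43 proteasome genes, 36 (83.7%) had a positive log2 fold change in sgKeap1-1 and 34 (79.1%) in sgKeap1-2, beside 49.9% and 48.3% of all features, and over both guides 35 (81.4%) did, beside 49.4%. The median log2 fold change was 0.09 in sgKeap1-1, 0.18 in sgKeap1-2 and 0.13 over both guides, and under 0.02 in size over all features. Sizes were small: the median of the absolute log2 fold change in sgKeap1-2 was 0.22 for the 43 genes and 0.24 for all features, and among genes with a mean of at least 500 counts a library 0.22 for the 25 proteasome genes and 0.19 for all features of that depth. Genes of one complex are not independent of one another, and no p is given for these counts. Without sgKeap1-2 replicate 3 the positive genes in that guide were 31 and their median 0.12; without sgCtrl replicate 1 those in sgKeap1-1 were 28.

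Of the 25 proteasome genes with a mean of at least 500 counts a library, 23 (92%) were positive in sgKeap1-2, beside 52.9% of the 1613 features of that depth (20 without sgKeap1-2 replicate 3), and 2 (8%) passed the threshold, beside 16.2%. The 95% interval of the log2 fold change lay within 1 in either direction for 41 of the 43 genes in sgKeap1-1 and for 40 in sgKeap1-2, where the exceptions were PSMA6, PSMC1 and PSMD10. It lay within 0.5 for 26 genes in sgKeap1-1 and 18 in sgKeap1-2. For 8 of the 43 genes (18.6%) all 6 KEAP1 guide libraries lay above all 3 sgCtrl libraries, where 8.04% of all features did: POMP, PSMA7, PSMB5, PSMC1, PSMD7, PSMD12, PSME4 and PSMF1. For PSMA6 and PSME1 (4.65%) all 6 lay below, where 6.74% of all features did. The 43 genes were counted more deeply than most, with a median of 666 mean counts a library, against 114 for all features. These shares were not computed for features of like depth.

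**Figure D1:**
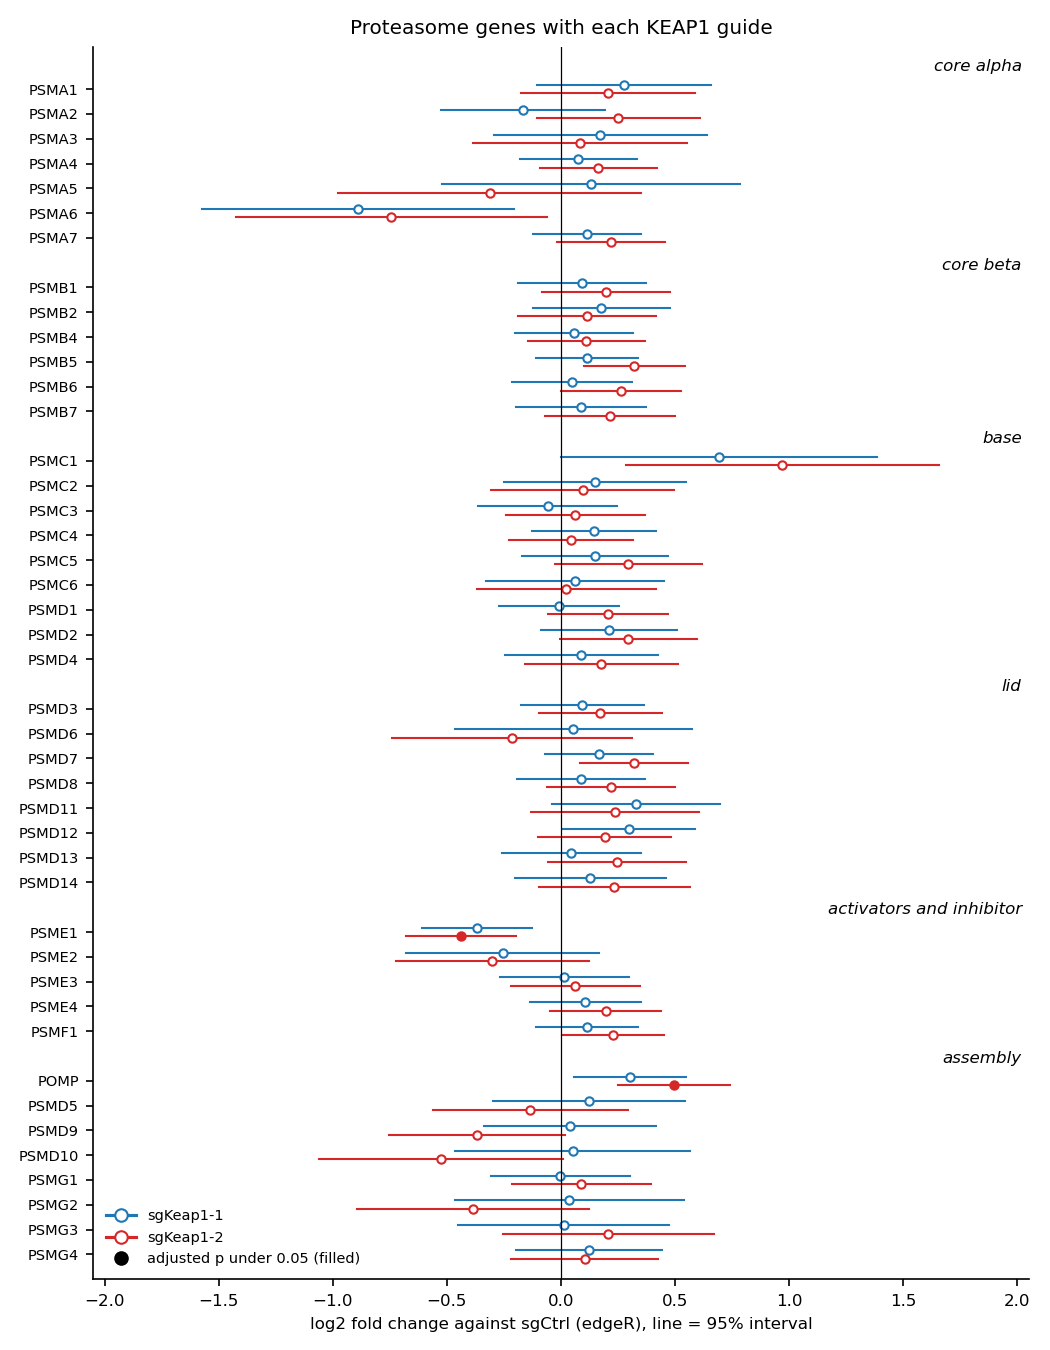
Log2 fold change of each of the 43 proteasome genes against sgCtrl (horizontal axis, no unit) for sgKeap1-1 and sgKeap1-2, grouped by part of the complex. Points are estimates and bars 95% intervals; 36 and 34 of the points lie right of 0, and the called genes are POMP on the right and PSME1 on the left in sgKeap1-2.

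The promoters of the called genes, POMP and PSME1, and of PSME2, the partner of PSME1 in the activator ring, are shown so that the letters of known regulatory motifs can be set beside the direction of each gene. They were taken from RefSeq on GRCh38.p14. Windows ran from 250 bases before to 50 bases after each start site, and 37 of the 43 proteasome genes were matched by symbol. POMP is at chr13:28659030-28659129 on the plus strand, the 100 bases before the start site, with the CCGGAAG motif of ETS factors, here on the opposite strand, in capitals. PSME1 is at chr14:24136094-24136208 on the plus strand, from 100 bases before to 15 bases after the start site, and PSME2 at chr14:24146611-24146790 on the minus strand, the 180 bases before the start site, with the core of the antioxidant response element and the interferon-response letters in capitals, in that order (the latter on the opposite strand in PSME1).
POMP: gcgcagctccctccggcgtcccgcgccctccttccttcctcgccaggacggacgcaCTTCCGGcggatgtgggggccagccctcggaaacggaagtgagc
PSME1: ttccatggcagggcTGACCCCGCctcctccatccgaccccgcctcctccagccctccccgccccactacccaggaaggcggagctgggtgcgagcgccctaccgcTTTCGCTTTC
PSME2: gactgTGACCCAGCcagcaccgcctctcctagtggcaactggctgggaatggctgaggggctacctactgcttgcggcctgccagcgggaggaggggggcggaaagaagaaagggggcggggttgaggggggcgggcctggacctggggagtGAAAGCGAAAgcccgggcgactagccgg
Letters were searched on both strands, and the motifs do not overlap in these stretches. The core of the antioxidant response element, TGACNNNGC, to which NRF1 and NRF2 bind, was in 13 of the 37 genes' windows (35.1%), against 16.1% of 27305 RefSeq genes. GAAANNGAAA, the letters of interferon-response sites, was in 5 (13.5%), against 4.38%: PSMA4, PSMB4, PSME1, PSME2 and PSMG4. CCGGAAG was in 15 (40.5%), against 12.2%, and CCAAT in 17 (45.9%), against 39.7%. Of the 15 genes with CCGGAAG, PSMA6, PSMD6 and PSMD9 had negative log2 fold changes over both guides. The others, POMP among them, had positive ones, and that of PSMD6 was positive without sgKeap1-2 replicate 3. The POMP window did not hold TGACNNNGC, and those of PSME1 and PSME2 did. Of the 13 genes whose windows did, PSMD9, PSME1, PSME2 and PSMG2 had negative log2 fold changes over both guides. The others had positive ones: PSMA4, PSMC4, PSMC5, PSMD1, PSMD3, PSMD5, PSMD12, PSME4 and PSMG1. The motifs are matches of letters, and no binding was measured. The 27305 RefSeq genes include genes that were not tested here, and a gene with several windows counted if any of them held the letters. Shares among the tested features were not computed, so these differences cannot be read as particular to proteasome genes.

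Of the core particle's alpha ring 5 of 7 genes had positive log2 fold changes with each guide, and of the beta subunits 6 of 6 did, but in the fit without a replicate block none of these 13 genes passed the threshold. In sgKeap1-2 the log2 fold changes ran from -0.74 to 0.25 in the alpha ring and from 0.11 to 0.32 among the beta subunits. Without sgKeap1-2 replicate 3, 6 of 7 alpha genes were positive in sgKeap1-2 (-0.74 to 0.39) and 6 of 6 beta genes (0.0636 to 0.28). PSMB5 (gene number 5693), which carries the chymotrypsin-like activity and is the main target of proteasome inhibitor drugs, was at 732, 753 and 763 CPM in sgCtrl, at 809, 833 and 789.7 CPM in sgKeap1-1 and at 909, 909.9 and 991 CPM in sgKeap1-2. The 3 groups did not overlap and ranked in that order. Its log2 fold change was 0.11 (SE 0.10) in sgKeap1-1 and 0.32 (SE 0.10, 95% interval 0.10 to 0.54) in sgKeap1-2. In sgKeap1-2 its adjusted p was 0.065 by edgeR, 0.0241 by edgeR with the replicate number as a block and 0.0197 by DESeq2. Without sgKeap1-2 replicate 3 the log2 fold change in that guide was 0.28 (adjusted p = 0.0975).

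PSMB6, the caspase-like subunit, was at 264, 282 and 279.96 CPM in sgCtrl, at 271, 278 and 306 CPM in sgKeap1-1 and at 304, 304 and 383 CPM in sgKeap1-2. All sgKeap1-2 libraries lay above the controls, sgKeap1-1 overlapped both groups, and the highest library was sgKeap1-2 replicate 3. Its log2 fold changes were 0.05 (adjusted p = 0.925) and 0.26 (adjusted p = 0.215) by edgeR, the latter 0.14 without that library (adjusted p = 0.49). PSMB7, the trypsin-like subunit, was at 358, 347 and 372 CPM in sgCtrl, at 416, 393 and 337 CPM in sgKeap1-1 and at 379.9, 375 and 494 CPM in sgKeap1-2. Its log2 fold changes were 0.09 and 0.21 (adjusted p = 0.853 and 0.373), and sgKeap1-1 libraries lay on both sides of the controls. On leaving out one library the value in sgKeap1-1 ran from 0.0225 to 0.172. Without sgKeap1-2 replicate 3 the value in sgKeap1-2 was 0.0718 (adjusted p = 0.779).

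PSMA1 and PSMA6 marked the ends of the alpha ring over both guides. PSMA1 was at 83.7, 118 and 97.0 CPM in sgCtrl, at 122, 131 and 108 CPM in sgKeap1-1 and at 131, 129 and 84.3 CPM in sgKeap1-2. Its log2 fold change over both guides was 0.24 (SE 0.15, adjusted p = 0.382), and 0.13 to 0.38 on leaving out one library. In sgKeap1-2 it was 0.21 (0.39 without replicate 3, adjusted p = 0.118). PSMA6 was at 11.1, 9.19 and 10.3 CPM in sgCtrl, at 7.06, 2.83 and 6.84 CPM in sgKeap1-1 and at 6.16, 6.10 and 6.06 CPM in sgKeap1-2. All 6 KEAP1 guide libraries were below the controls, but the gene averaged only 27.1 counts a library. Over both guides its log2 fold change was -0.82 (SE 0.26, adjusted p = 0.0669, and 0.0401 with the replicate number as a block). RefSeq lists 4 pseudogene symbols of PSMA6, and how reads were shared with such copies is not given in the sources used here. PSMB4, the lowest of the beta subunits over both guides, had a log2 fold change of 0.08 (SE 0.10, adjusted p = 0.715) with overlapping groups (166 to 195, 180.1 to 204 and 183 to 213 CPM). Its value ran from 0.0209 to 0.136 on leaving out one library. PSMA3 and its antisense transcript PSMA3-AS1 had log2 fold changes of 0.13 and -0.27 over both guides, neither called, and that of PSMA3 was 0.25 without sgKeap1-2 replicate 3 (adjusted p = 0.16); the strand setting of the counting is not given, so their reads cannot be told apart.

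**Figure D2:**
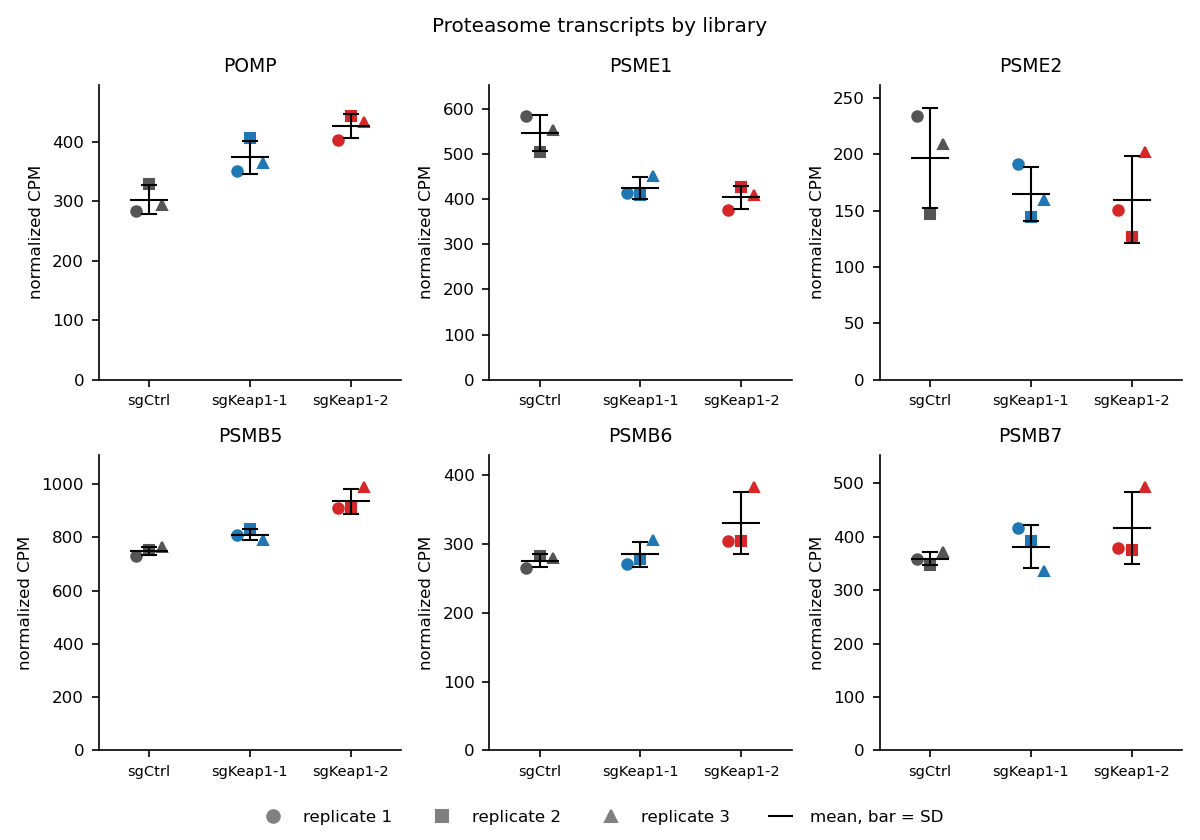
Normalized CPM of each library (points, shapes by replicate) for POMP, PSME1, PSME2, PSMB5, PSMB6 and PSMB7 in sgCtrl, sgKeap1-1 and sgKeap1-2, with the group mean and SD (line and bar, n = 3) and each vertical axis starting at 0. POMP libraries sit at 284 to 329.7 CPM in sgCtrl and at 404 to 443 CPM in sgKeap1-2, and PSME1 libraries at 504 to 583 and at 376 to 426 CPM.

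In the regulatory particle no gene passed the threshold in the fit without a replicate block, although 9 of 9 base genes in sgKeap1-2 and 8 of 8 lid genes in sgKeap1-1 had positive log2 fold changes. Leaving out sgKeap1-2 replicate 3, the base count in sgKeap1-2 was 6 of 9, with PSMC3, PSMC4 and PSMD4 below 0, and the lid count 8 of 8. In the other pairing, 7 of 9 base genes in sgKeap1-1 and 7 of 8 lid genes in sgKeap1-2 did. In sgKeap1-2 the log2 fold changes ran from 0.02 to 0.97 in the base and from -0.22 to 0.32 in the lid. PSMD7, a structural partner of the deubiquitinase PSMD14, had the highest of the lid (0.32, SE 0.11). Its adjusted p by edgeR was 0.0826, and 0.0357 with the replicate number as a block. PSMC1, an ATPase of the base, had the highest value of its class: it was at 8.21, 9.19 and 5.30 CPM in sgCtrl, at 11.4, 10.5 and 14.7 CPM in sgKeap1-1 and at 14.2, 9.27 and 20.8 CPM in sgKeap1-2. Each KEAP1 guide library was above each control library (log2 fold change over both guides 0.84, SE 0.29, adjusted p = 0.082). In sgKeap1-2 it was 0.97 (adjusted p = 0.0714), and 0.94 with the replicate number as a block (adjusted p = 0.0359). It was 1.23 without replicate 2 (adjusted p = 0.0215) and 0.62 without replicate 3 (adjusted p = 0.247). The row averaged 44.2 counts a library, fewer than the 543 of its pseudogene PSMC1P1, 1 of 13 pseudogene symbols that RefSeq lists for it, so its reads may be split among near-identical copies. PSMC3, another ATPase, had the lowest value of the base over both guides, 0.00 (SE 0.12, adjusted p = 0.994), and -0.0614 without sgKeap1-2 replicate 3.

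PSMD11, a scaffold subunit of the lid, was the lid gene with the highest value over both guides, and whether it passed turned on a single library. It was at 329.9, 339 and 374 CPM in sgCtrl, at 458, 405 and 449 CPM in sgKeap1-1 and at 488, 463 and 279.8 CPM in sgKeap1-2. The last of these, sgKeap1-2 replicate 3, was below every control library, while the other 5 KEAP1 guide libraries were above them. With all libraries its log2 fold change in sgKeap1-2 was 0.24 (SE 0.17, adjusted p = 0.452), and without that library 0.45 (adjusted p = 0.0153). Over both guides it was 0.29 (adjusted p = 0.272) with and 0.38 (adjusted p = 0.0132) without it. PSMD6, the lid gene with the lowest value (-0.07 over both guides, SE 0.21, adjusted p = 0.9), was at 25.7 CPM in the same library and at 44.1 to 63.0 CPM in the other 8, and its value was 0.0582 without that library.

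**Figure D3:**
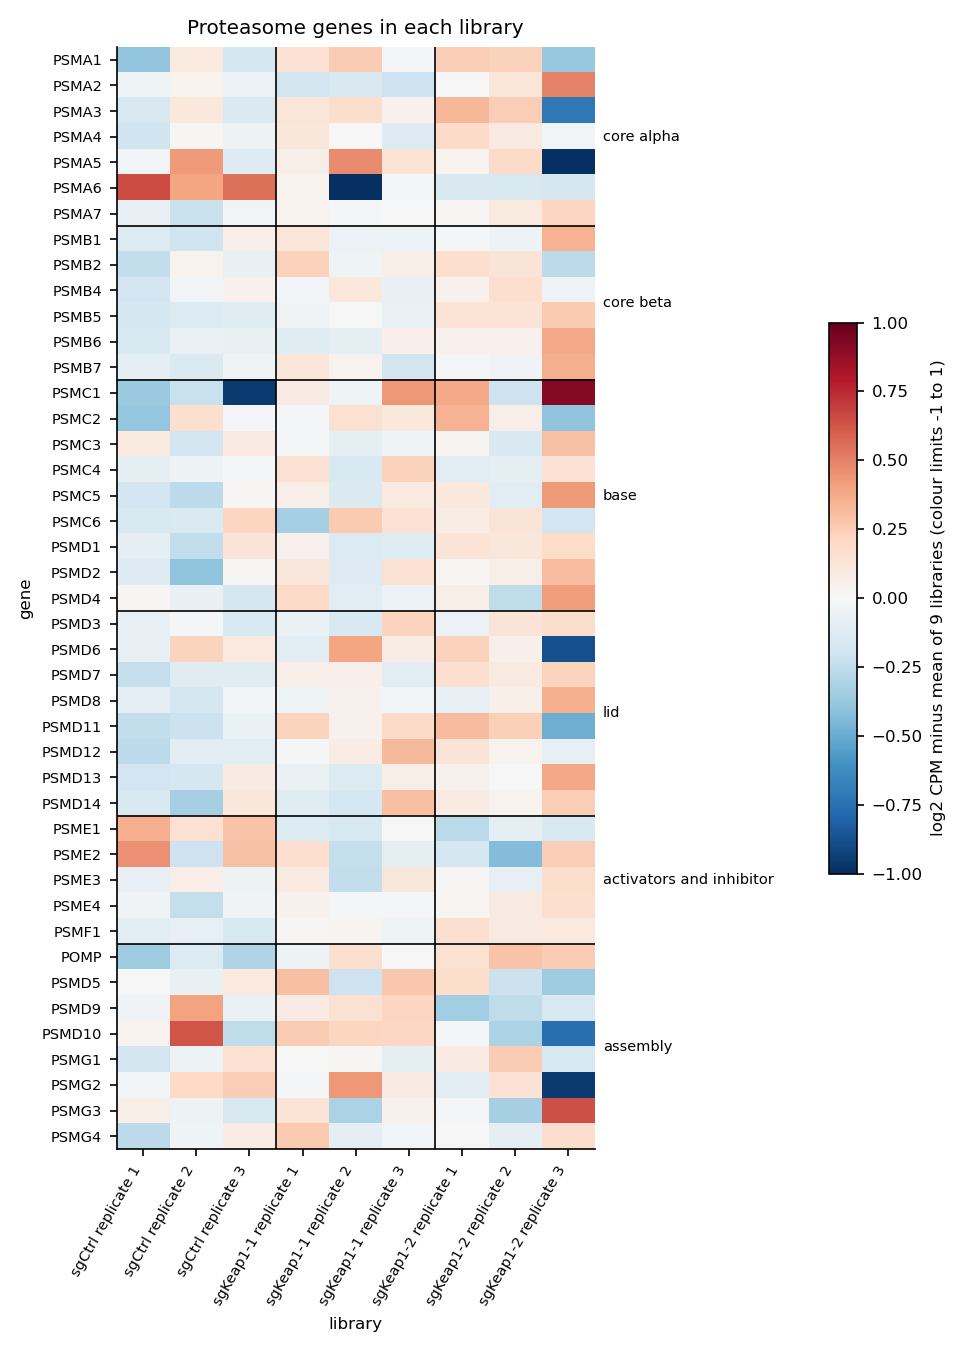
Deviation of each library's log2 CPM from the gene's mean over all 9 libraries for the 43 proteasome genes (rows, grouped by part of the complex) in the 9 libraries (columns); the colour scale is in log2 units and stops at 1 in either direction. The column of sgKeap1-2 replicate 3 holds many of the strong colours, with PSMA5, PSMG2 and PSMD6 low and PSMC1 and PSMG3 high.

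The genes of the ring-shaped activator, PSME1 and PSME2, had negative log2 fold changes with both guides, whereas PSME3, PSME4 and PSMF1 had positive ones. PSME1 and PSME2 form the ring that opens the core particle for peptides and that interferon gamma is known to induce together with the immunoproteasome, PSME3 and PSME4 encode nuclear activators, and PSMF1 encodes an inhibitor of the core. PSME1 (gene number 5720) is among the 13 genes whose promoter windows held TGACNNNGC and the 5 whose windows held GAAANNGAAA. It was at 583, 504 and 553 CPM in sgCtrl, at 413, 408 and 452 CPM in sgKeap1-1 and at 376, 426 and 408 CPM in sgKeap1-2. Its means were 547 ± 40.0, 424 ± 24.1 and 403 ± 25.7 (SD, n = 3). No KEAP1 guide library reached a control library, and the 2 guide groups overlapped. It fell by 0.44 on the log2 scale in sgKeap1-2 (SE 0.11, 95% interval -0.68 to -0.20, adjusted p = 0.0214 by edgeR) and by 0.40 over both guides (SE 0.10, adjusted p = 0.0131). In sgKeap1-1 its log2 fold change was -0.37 (SE 0.11, adjusted p = 0.0933), which passed by DESeq2 (adjusted p = 0.0455) and without sgKeap1-2 replicate 3 (adjusted p = 0.0487). The sgKeap1-2 call was lost without sgCtrl replicate 1 (-0.39, adjusted p = 0.106), sgCtrl replicate 3 (-0.43, adjusted p = 0.0807) or sgKeap1-2 replicate 1 (-0.39, adjusted p = 0.0971), and held without sgKeap1-2 replicate 3 (adjusted p = 0.0210). The call over both guides was lost without sgCtrl replicate 1 (adjusted p = 0.101) or replicate 3 (adjusted p = 0.0702).

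PSME2, its partner in the ring, was at 234, 147 and 209 CPM in sgCtrl, at 191, 144 and 159 CPM in sgKeap1-1 and at 151, 126 and 202 CPM in sgKeap1-2. The groups overlapped, and the log2 fold changes were -0.26 (adjusted p = 0.632) and -0.30 (adjusted p = 0.401), the latter -0.51 without sgKeap1-2 replicate 3 (adjusted p = 0.0991); that library was the highest of its group. PSME3 had values of 0.01 and 0.06 (-0.0107 in sgKeap1-2 without that library), and PSME4 of 0.11 and 0.20, none of them called. PSMF1 was at 248, 252 and 240.4 CPM in sgCtrl, at 269, 272 and 259.8 CPM in sgKeap1-1 and at 298, 284 and 285 CPM in sgKeap1-2. These 3 groups did not overlap, yet its log2 fold changes of 0.11 and 0.23 did not pass (adjusted p = 0.72 and 0.204). Set against the core, the summed CPM of PSME1 and PSME2 per 100 CPM of the 13 core genes was 22.3, 17.3 and 19.5 in sgCtrl, 14.4, 13.6 and 15.6 in sgKeap1-1 and 12.3, 12.9 and 13.4 in sgKeap1-2. This ratio was lower in all 6 KEAP1 guide libraries than in the controls and was not tested. Of each 100 CPM of the pair, PSME1 made up on average 73.8 in sgCtrl, 72.0 in sgKeap1-1 and 71.8 in sgKeap1-2. The ratio is therefore not independent of the PSME1 and core values given above.

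The assembly factors did not move together. POMP (gene number 51371) is among the 15 genes whose promoter windows held CCGGAAG. It was at 284, 329.7 and 294 CPM in sgCtrl, at 351, 405 and 364 CPM in sgKeap1-1 and at 404, 443 and 434 CPM in sgKeap1-2. Its means were 303 ± 23.98, 374 ± 28.3 and 427 ± 20.6 (SD, n = 3). Every KEAP1 guide library was above every control library, and the 2 guides overlapped by one library. In sgKeap1-2 it rose by 0.50 on the log2 scale (SE 0.11, 95% interval 0.25 to 0.74, adjusted p = 0.0117 by edgeR), a fold of 1.41, and over both guides by 0.40 (SE 0.11, adjusted p = 0.0261). In sgKeap1-1 its value was 0.30 (SE 0.11, adjusted p = 0.198), and the difference between the guides, 0.19, had a 95% interval of -0.05 to 0.44 (adjusted p = 0.986). The sgKeap1-2 call was lost without sgCtrl replicate 1 (0.45, adjusted p = 0.069) or sgCtrl replicate 3 (0.48, adjusted p = 0.0602), and held without sgKeap1-2 replicate 3 (0.48, adjusted p = 0.0129). The call over both guides was lost without sgCtrl replicate 1 (adjusted p = 0.152) or 3 (0.126), or sgKeap1-2 replicate 1 (0.0547) or 2 (0.0629).

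Of the 8 assembly factors, 7 had positive values in sgKeap1-1 and 4 in sgKeap1-2. PSMG1 to PSMG4, the chaperones that build the alpha ring, had log2 fold changes of 0.09, -0.38, 0.21 and 0.10 in sgKeap1-2, none of them called. On leaving out sgKeap1-2 replicate 3 these values were 0.19, -0.11, -0.12 and 0.0243, so that PSMG3 changed sign, and 3 of the 8 assembly factors were positive in sgKeap1-2. In sgKeap1-2 replicate 3, PSMG2 was the lowest of all libraries at 22.3 CPM and PSMG3 the highest at 167 CPM. PSMD10, a chaperone of the base also known as gankyrin, was at 22.5, 34.4 and 18.4 CPM in sgCtrl, at 26.3, 25.7 and 25.5 CPM in sgKeap1-1 and at 21.9, 17.6 and 12.8 CPM in sgKeap1-2. Its log2 fold change between the guides was -0.58 (95% interval -1.10 to -0.05, unadjusted p = 0.0336 and adjusted p = 0.96 by edgeR); against sgCtrl it was -0.53 in sgKeap1-2, and -0.34 without replicate 3 (over both guides -0.20 and -0.0875). The 8 other rows that share the symbols had log2 fold changes over both guides from -0.44 (PSMC3IP) to 0.48 (PSMD2P1), with 5 positive and none called.

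Summed over the parts of the complex, the levels per library were as follows, as descriptions with no test. The 43 genes came to 8866 to 9369 CPM in sgCtrl, 9346 to 9840.2 CPM in sgKeap1-1 and 9879.9 to 10606 CPM in sgKeap1-2, or 106% and 112% of the sgCtrl mean. The alpha ring reached 108% and 113%, the beta subunits 107% and 118%, the base 107% and 113%, the lid 113% and 117%, and the assembly factors 112% and 118%, whereas the 7 assembly factors other than POMP came to 103% and 99.4%. The activators with the inhibitor were at 91.3% and 92.4%. Without sgKeap1-2 replicate 3 the sgKeap1-2 share was 110% for the 43 genes, 112% for the beta subunits and 106% for the base.

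**Figure D4:**
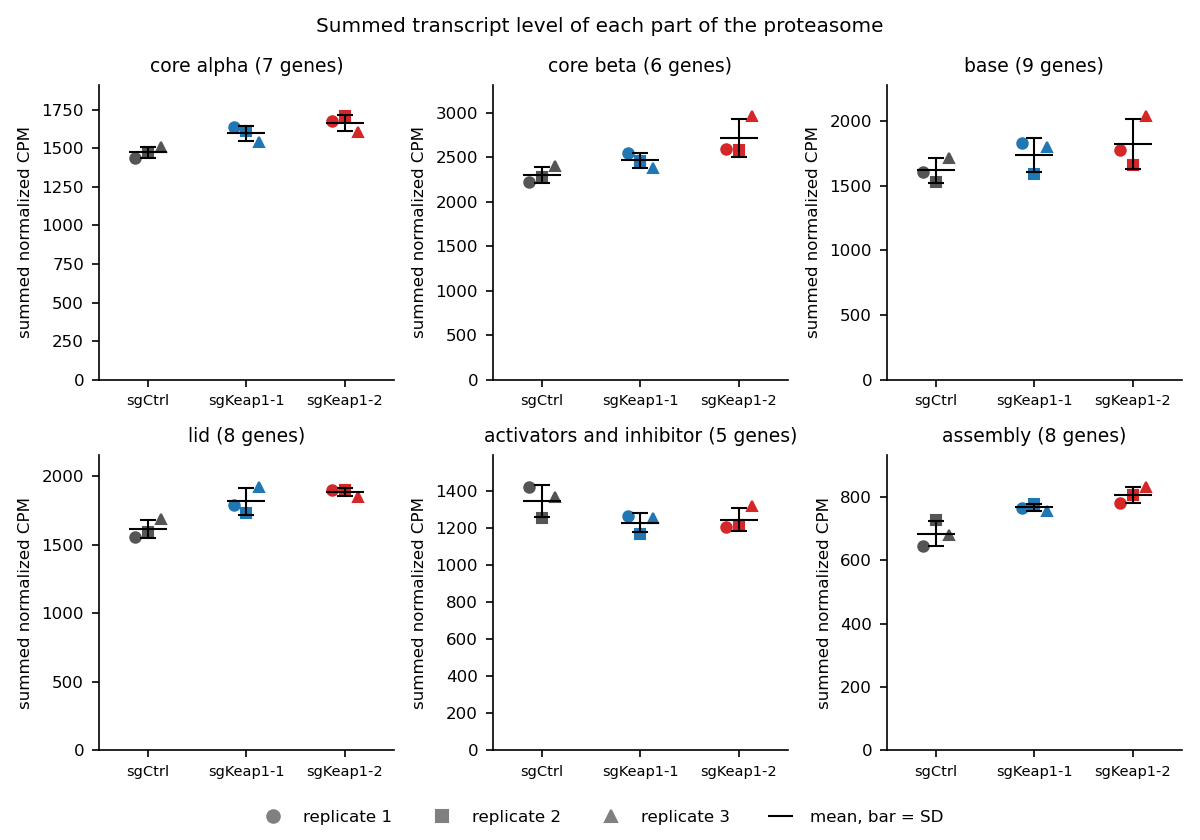
Summed normalized CPM of each part of the proteasome in each library (points, shapes by replicate), with the group mean and SD (line and bar, n = 3), on vertical axes that start at 0. The alpha ring, lid and assembly panels show all 6 KEAP1 guide libraries above the sgCtrl libraries, the assembly panel follows POMP, as the other 7 genes stand at 103% and 99.4% of sgCtrl, and the activator and inhibitor panel has a lower mean in both KEAP1 guide groups.

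Other genes of the pathway were taken from a list of 33: further subunits and partners of the proteasome, regulators of its genes, ubiquitin genes, shuttle factors and the KEAP1 ligase. All 33 were tested by edgeR. Of these, 1 rose and 1 fell in sgKeap1-1, 2 rose and 2 fell in sgKeap1-2, and 1 rose and 2 fell over both guides. Between the guides 0 passed, with 2 of 33 at an unadjusted p under 0.05, beside 562 of the 11064 features tested. The called shares, 6.06%, 12.1% and 9.09%, were near the 4.2%, 10.8% and 9.64% of all features. SQSTM1, an autophagy receptor that binds both ubiquitin and KEAP1, was at 169, 208 and 182 CPM in sgCtrl, at 401, 540.3 and 342 CPM in sgKeap1-1 and at 550.1, 699 and 534 CPM in sgKeap1-2. It rose with both guides (fold 2.30, adjusted p = 0.000638, and fold 3.19, adjusted p = 1.9e-05), with no overlap with the controls.

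DDI2, the protease that cleaves NRF1 into its active form, was at 126, 127 and 127 CPM in sgCtrl, at 92.1, 96.5 and 90.7 CPM in sgKeap1-1 and at 82.2, 88.0 and 84.8 CPM in sgKeap1-2. The 3 groups did not overlap, and it fell with both guides (by 0.44 on the log2 scale, adjusted p = 0.0413, and by 0.58, adjusted p = 0.00458). The sgKeap1-1 call was lost in 8 of the 9 fits that left out one library (adjusted p up to 0.154), all except the fit without sgKeap1-2 replicate 3; the sgKeap1-2 call held in all 9. NFE2L1, which encodes NRF1 itself, was at 78.2 to 114 CPM in sgCtrl, 70.9 to 115 CPM in sgKeap1-1 and 75.1 to 102 CPM in sgKeap1-2, with log2 fold changes of 0.07 (adjusted p = 0.94) and -0.08 (adjusted p = 0.859), the latter -0.0473 without sgKeap1-2 replicate 3.

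NFE2L2, which encodes NRF2, was at 271, 234 and 264 CPM in sgCtrl, at 178, 214 and 189.6 CPM in sgKeap1-1 and at 197, 201 and 149 CPM in sgKeap1-2. All KEAP1 guide libraries lay below the controls, and it fell by 0.49 on the log2 scale in sgKeap1-2 (adjusted p = 0.0347) and by 0.44 over both guides (adjusted p = 0.023). In sgKeap1-1 its value was -0.40 (adjusted p = 0.146). It passed without sgKeap1-2 replicate 3 (-0.40, adjusted p = 0.043) and with the replicate number as a block (-0.40, adjusted p = 0.0437). The sgKeap1-2 call was lost in 6 of the 9 fits that left out one library. Among them were those without sgCtrl replicate 1 (adjusted p = 0.134), sgCtrl replicate 3 (0.118) and sgKeap1-2 replicate 3 (-0.37, adjusted p = 0.0743). The call over both guides was lost in 3 of the 9, without sgCtrl replicate 1 (0.131), sgCtrl replicate 3 (0.109) or sgKeap1-1 replicate 1 (0.0533). The ubiquitin receptor ADRM1, a subunit of the base whose symbol the rule does not match, was at 247 to 294 CPM in sgCtrl, 284 to 341 CPM in sgKeap1-1 and 314 to 411 CPM in sgKeap1-2, with log2 fold changes of 0.25 (adjusted p = 0.436) and 0.40 (adjusted p = 0.0777).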

How the data were processed

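Total RNA of HepG2 cells was made into QuantSeq libraries. The authors deposited whole-number counts per gene; the submitters' processing notes name FastQC 0.72, cutadapt 1.16, STAR 2.7.5b, featureCounts 1.6.3 and limma 3.40.6. These notes give hg38, whereas the study's methods give another human build; the table has no coordinates, so the printed ones are those of RefSeq only. The gene annotation and the strand setting of the counting are not given in the sources used here. All 12798 features of the deposited table exceeded 0.5 CPM in at least 3 libraries, so the counts were filtered before deposit. The table names rows by gene number, and symbols were taken from RefSeq; the 1052 rows without a number (1.34% of the counts) were left out of library sizes and tests.

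Counts were analysed in R 4.3.3 with edgeR 4.0.16 (TMM scaling, filterByExpr, robust quasi-likelihood fit and test), with Benjamini-Hochberg adjustment over the 11064 features tested and a threshold of 0.05. One fit held the 3 groups, and a second set the 6 KEAP1 guide libraries against sgCtrl. DESeq2 1.42.0, limma-voom (limma 3.58.1), other scalings and filters, a replicate block and leaving out each library were alternatives. CPM are scaled by TMM, and SE were derived from each estimate and its F statistic. Libraries of the same group differed beyond counting noise (chi-square per degree of freedom 4.63 to 24.1), so none was a copy. The code was tested on simulated data. Named genes were the members past the threshold, the catalytic subunits, POMP, the highest and the lowest of each part of the complex over both guides, KEAP1, NQO1, NFE2L1 and the called genes of the pathway list, except a gene that is not reported here; further members are given as examples chosen after their values were seen. The members and lists were chosen with earlier results of these data known.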

Additional observations from a re-analysis of the deposited data

How the results depend on the processing

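Scaling by DESeq2 size factors, by library size alone or by the upper quartile, other filters, limma-voom and the fit of the compared groups alone left POMP and PSME1 as the 2 called members in sgKeap1-2 and over both guides, and DESeq2 added PSMB5 in sgKeap1-2. The number of positive genes among the 43 was 36 to 38, 34 and 33 to 35 in sgKeap1-1, in sgKeap1-2 and over both guides across the scalings, filters and tools run. Members called in sgKeap1-1 numbered 1 by DESeq2 and 0 to 1 on leaving out one library; this range was 0 to 3 in sgKeap1-2 and 0 to 3 over both guides. Pathway genes called in sgKeap1-1 (2) became 1 without scaling and 1 with upper-quartile scaling, and 1 to 3 on leaving out one library; in sgKeap1-2 (4) they became 2 in the fit of the compared groups alone and 2 to 4, and over both guides (3) 2 to 3. The causes were not tested.

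Libraries with the same replicate number share a prefix in the labels, whose meaning is not given, so the numbers were not taken as pairs. Libraries of different groups were correlated on their log2 CPM after each gene's group mean was subtracted. By this measure 7 of 9 same-number pairs correlated above 0.1 (r from -0.01 to 0.52). Among libraries of the other groups, 7 of 9 libraries correlated best with their own number. With the replicate number as a block, 977, 1956, 26 and 1609 features were called in sgKeap1-1, sgKeap1-2, between the guides and over both guides, against 465, 1196, 2 and 1067 without it. Members called with the block were 1 (PSME1), 5 (POMP, PSMB5, PSMC1, PSMD7, PSME1), 0 and 3 (POMP, PSMA6, PSME1), and pathway genes 4 in sgKeap1-1, 10 in sgKeap1-2 and 5 over both guides.

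A minimum of 10 counts in every library left 312, 922, 0 and 823 calls, and DESeq2 called 19 features between the guides. Values near 0 changed sign: over both guides PSMC3 was -0.000521 by limma-voom, and NFE2L1 was 0.00313 without scaling and 0.0101 with upper-quartile scaling. On leaving out one library the log2 fold change ran from -0.0042 to 0.0837 for PSMB6 in sgKeap1-1, from -0.0172 to 0.21 for PSMB7 between the guides, from -0.0860 to 0.0520 for PSMC3, from -0.17 to 0.0582 for PSMD6 and from -0.39 to 0.0781 for PSMD10 over both guides. For KEAP1 in sgKeap1-2 it ran from -0.12 to 0.11, and for NFE2L1 from -0.0924 to 0.25 in sgKeap1-1, from -0.21 to 0.10 in sgKeap1-2 and from -0.11 to 0.18 over both guides. Keeping the rows without a gene number, an alternative chosen after seeing the data, changed no call of a member. Counting depth limits PSMA6 and PSMC1, with means of 27.1 and 44.2 counts a library.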
